A study of Culex quinquefasciatus with 12 samples.

Results

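Transcripts of 4 genes of endoplasmic reticulum folding and calcium handling were followed in the larval midgut of the mosquito Culex quinquefasciatus after ingestion of Bin toxin: calreticulin (CPIJ007376), calnexin (CPIJ009164), calpain (CPIJ005134) and an inositol trisphosphate receptor (CPIJ012217). The 4 genes are those that the study named for these functions. The study also listed them as changed on these same arrays. Counts of them beside the shares of all genes are therefore not independent evidence. The study listed calpain and the receptor as higher at 6 and 12 h and calreticulin as lower at 18 h. None of these changes was called in the main fit below, and the cause of that departure was not tested. The 4 genes were found by the gene identifier in the probe name, 4 of the 19751 genes on the array and 8 of its 43803 spots, with 2 probes for each gene. Toxin-treated larvae were third-instar larvae of the JHB strain that had been starved for 3 h and then fed BinA and BinB, the paired proteins of the toxin, in equal molar amounts at 80 ng/ml for 6, 12 or 18 h. Untreated larvae of the same strain were collected at the same times without toxin, and whether they were starved too is not given in the sources used here. Each of 4 biological replicates per time point was a pool of midguts from larvae that were still alive at collection, so that dead larvae are not represented. The labels give 20 larvae per treated replicate but pools of at least 20 midguts, which leaves the number of midguts in a pool unsettled. Toxin-treated RNA was labelled with Cy5 and untreated RNA with Cy3 on every one of the 12 arrays, and each time point lay on a slide of its own. A dye effect particular to a gene therefore cannot be told apart from the toxin in the ratios of a time point. Such an effect cancels in differences between time points if it is the same on each slide.

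Calreticulin and calnexin are lectin chaperones of the endoplasmic reticulum. They hold newly made glycoproteins that carry a trimmed sugar chain until these have folded, calreticulin as a soluble protein of the lumen that also binds calcium, and calnexin as its membrane-anchored relative. The inositol trisphosphate receptor is the channel through which the endoplasmic reticulum releases calcium into the cytosol, and calpain is a cytosolic protease that calcium activates. The midgut epithelium, which secretes digestive enzymes and is the tissue that Bin toxin binds, depends on this folding machinery.

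All 8 probes gave a signal well above background in both channels on all 12 arrays, which makes 96 readings of 96 in toxin-treated and 96 of 96 in untreated midguts, and 0 readings were saturated or marked as outlying. The log ratios of 3 arrays, namely replicate 3 at 6 h, replicate 2 at 12 h and replicate 3 at 18 h, were narrow, with an interquartile range of 0.039, 0.039 and 0.014 on the log2 scale over all genes. With the background refitted after removal of spots in an uneven local background, the range on these 3 arrays was 0.28, 0.30 and 0.23, and log2 ratios of these arrays after the refit are given below where they differ by 0.05 or more. Among 7 muscle genes 0 were called at any time point, and their summed signal lay between 15714 and 22496 units in toxin-treated and between 16137 and 17698 units in untreated midguts. The 6 midgut genes summed to 149176 to 207754 units in toxin-treated and 232539 to 298261 units in untreated midguts, with 1, 2 and 2 of them called lower at 6, 12 and 18 h. The 2 fat body genes, hexamerin 2 beta and vitellogenin, summed to 958 to 13331 units in toxin-treated and 3261 to 18530 units in untreated midguts. Hexamerin 2 beta was called lower at 18 h, and vitellogenin was not called at any time point. All genes of these marker lists were well above background in both channels on all 12 arrays, and the alpha-amylases and maltase 1 among the midgut genes were saturated on most. These saturated genes made up most of the midgut sum, which is therefore no measure of midgut content. Whether a difference in the share of muscle, midgut or fat body in the tissue plays a part in the values below was not tested. In bulk midgut RNA fewer cells of a type and less RNA per cell cannot be told apart.

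Calreticulin transcripts were strongly down-regulated at 6 and 12 h of Bin exposure and nearer to the untreated level at 18 h. Mean ratios of toxin-treated over untreated midguts at 6, 12 and 18 h were 0.208, 0.175 and 0.688, that is 4.80-fold, 5.72-fold and 1.45-fold lower in toxin-treated midguts. At 6 h, the normalised signal of calreticulin in replicates 1 to 4 was 3666, 2817, 3023 and 2786 units in toxin-treated midguts, against 14694, 14490, 14255 and 15242 units in untreated midguts. No toxin-treated pool came near an untreated pool. The log2 ratios of the 4 arrays were -2.00, -2.36, -2.24 and -2.45, with a mean of -2.26 ± 0.19 (SD, n = 4) and a 95% interval of -2.57 to -1.96 (limma adjusted p = 2.06e-06). After the refit, the narrow array of replicate 3 was at -2.49. Over the whole array, 2.28% of the genes were called lower at 6 h and 1.84% higher, where a gene is called if its adjusted p is below 0.05 and its log2 ratio is 0.75 or more in size. Calreticulin and calnexin, 2 of the 4 genes, were called lower at that time and 0 of 4 higher, and only 10 of 19751 genes had a lower mean ratio than calreticulin.

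The distance between the channels was widest at 12 h. Calreticulin then had 3262, 3840, 3634 and 4339 units in the toxin-treated replicates, against 21058, 20836, 21376 and 22530 units in the untreated replicates. Every untreated pool was thus far brighter than any toxin-treated pool. Log2 ratios were -2.69, -2.44, -2.56 and -2.38, with a mean of -2.52 ± 0.14 (SD, n = 4, limma adjusted p = 5.49e-07), and 21 genes of the array had a lower mean. The narrow array of replicate 2 was at -2.66 after the refit. In the same comparison 4.30% of all genes were called lower and 3.15% higher, and of the 4 genes again calreticulin and calnexin were called lower and 0 higher.

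At 18 h, calreticulin reached 3231, 3349, 5763 and 5541 units in toxin-treated midguts, against 6204, 6309, 6017 and 6555 units in untreated midguts. The toxin-treated pools fell into a lower pair, replicates 1 and 2, and a higher pair, replicates 3 and 4, while the untreated pools lay close together. The highest toxin-treated pool still lay below the lowest untreated pool. Log2 ratios were -0.94, -0.91, -0.062 and -0.24, with a mean of -0.54 ± 0.45 (SD, n = 4) and a 95% interval of -0.84 to -0.24. The adjusted p passed 0.05 in limma (0.0236), as it did for 6.36% of all genes in the lower direction, but the size stayed short of the 0.75 that a call needs. Replicate 3, one of the 3 narrow arrays, had a log2 ratio of -0.19 after the refit, and with median centring in place of loess the 18 h mean was -0.068 (limma adjusted p = 0.805). Without replicate 1 or replicate 2 the mean was -0.41 or -0.42 and limma's adjusted p 0.135 or 0.127, and it did not pass with scale normalization, a separate fit or the first probe alone either, with a range of 0.00391 to 0.851 over the alternatives. With the fold threshold, 1.24% of all genes were called lower at 18 h and 1.79% higher, and 0 of the 4 genes were called in either direction.

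Calnexin transcripts changed in the same direction as calreticulin and by less. At 6 and 12 h its mean ratio of toxin-treated over untreated midguts was 0.582 and 0.511, which is 1.72-fold and 1.96-fold lower, and the 18 h ratio was 1.01. In the 6 h replicates, calnexin had 5257, 5232, 4889 and 6446 units in toxin-treated midguts, against 9021, 9873, 8935 and 9526 units in untreated midguts. The groups did not overlap, and replicate 4 had the highest toxin-treated level. Log2 ratios were -0.78, -0.92, -0.87 and -0.56 (mean -0.78 ± 0.16, SD, n = 4, limma adjusted p = 5.31e-06). This mean lay just past the size needed for a call, and it was -0.74 without replicate 2, -0.72 on the second probe alone, -0.58 in the scanner software's log ratio and -0.50 with median centring, none of which reaches that size. Replicate 3 was at -1.01 after the refit.

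For 12 h the calnexin signals were 5000, 5215, 5958 and 5156 units in toxin-treated midguts, against 9983, 10058, 11021 and 10647 units in untreated midguts. All 4 toxin-treated pools were at about the same level as at 6 h, and all 4 untreated pools were higher than any untreated pool at 6 h. The log2 ratios of -0.998, -0.95, -0.89 and -1.05 had a mean of -0.97 ± 0.068 (SD, n = 4, limma adjusted p = 6.99e-07), and replicate 2 was at -1.11 after the refit. In the 18 h pools, calnexin had 5385, 6737, 6248 and 6529 units with toxin, against 5785, 6183, 6159 and 6337 units in untreated midguts. The groups overlapped, and the ratios of -0.10, 0.12, 0.021 and 0.043 averaged 0.021 ± 0.094 (SD, n = 4, limma adjusted p = 0.83), with replicate 3 at -0.098 after the refit. The sign of so small a mean turned with the background correction, and median centring gave 0.48, which passed limma's adjusted p (0.0161) but did not reach the size of a call.

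Calpain transcripts were higher in toxin-treated midguts at 6 and 12 h by a small margin, in the same direction in every replicate. At 6 h, calpain had 1114, 1141, 1044 and 1188 units in toxin-treated midguts, against 760, 726, 832 and 707 units in untreated midguts. The 2 groups did not overlap. Log2 ratios were 0.55, 0.65, 0.33 and 0.75 (mean 0.57 ± 0.18, SD, n = 4, limma adjusted p = 0.000118), a 1.48-fold higher level. Replicate 3, with the smallest ratio, is one of the narrow arrays, and its log2 ratio after the refit was 0.55.

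In the 12 h replicates the calpain signals were 1029, 1146, 1404 and 1077 units with toxin, against 817, 932, 952 and 843 units without. Again every toxin-treated pool was above every untreated pool. Log2 ratios of 0.33, 0.30, 0.56 and 0.35 gave a mean of 0.39 ± 0.12 (SD, n = 4, limma adjusted p = 0.000986), or 1.31-fold, with replicate 2 at 0.37 after the refit and a mean of 0.62 with median centring. An adjusted p under 0.05 with a higher level, whatever the size, was found for 8.55% of all genes at 6 h and 15.8% at 12 h. Of the 4 genes, calpain passed in that direction at both times, and at neither was it called, except at 6 h with median centring (log2 0.82, limma adjusted p = 5.29e-05). With scale normalization it passed at neither (limma adjusted p = 0.0857 and 0.124).

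By 18 h calpain had 1228, 1235, 1154 and 1272 units in toxin-treated midguts, against 1085, 1120, 1135 and 1171 units in untreated midguts. The ranges met, with the lowest toxin-treated pool below the highest untreated pool. Log2 ratios were 0.18, 0.14, 0.024 and 0.12 (mean 0.12 ± 0.066, SD, n = 4), and the test did not pass (limma adjusted p = 0.237). With median centring the mean was 0.52 and did pass (limma adjusted p = 0.000883), short of a call.

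The inositol trisphosphate receptor was not called at any time point, and its replicates were uneven. Its signals at 6 h were 592, 776, 825 and 742 units in toxin-treated midguts, against 579, 645, 714 and 618 units in untreated midguts. The groups overlapped, although each toxin-treated pool was brighter than the untreated pool on its own array. Log2 ratios were 0.034, 0.27, 0.21 and 0.26 (mean 0.19 ± 0.11, SD, n = 4, limma adjusted p = 0.362), with replicate 3 at 0.42 after the refit and a mean of 0.41 with median centring, which did not pass.

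Receptor signals at 12 h were 374, 431, 643 and 590 units with toxin, against 366, 416, 394 and 401 units without. Replicates 1 and 2 lay within or just beside the untreated range, and replicates 3 and 4 lay clearly above it. Log2 ratios were 0.032, 0.048, 0.70 and 0.56 (mean 0.34 ± 0.35, SD, n = 4), with a limma adjusted p of 0.0769, and replicate 2 was at 0.24 after the refit. Over the alternatives the limma adjusted p ran from 0.0189 to 0.313. It passed with the refit (mean 0.40, limma adjusted p = 0.0285), plain subtraction (0.47, adjusted p = 0.0230), median centring (0.50, adjusted p = 0.0189), the scanner ratio (0.54, adjusted p = 0.0286) and the replicate block (adjusted p = 0.0278). It passed too without replicate 2 at 12 h (mean 0.43, limma adjusted p = 0.0459) or replicate 4 at 18 h (adjusted p = 0.0439), and without replicate 3 at 12 h the mean was 0.21. None of these means reached the size of a call.

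At the last time point the receptor had 407, 455, 417 and 831 units in toxin-treated midguts, against 513, 584, 417 and 638 units in untreated midguts. Replicate 4 was the brightest pool in both channels and the only one with a positive log2 ratio (0.38), beside -0.33, -0.36 and -0.0028 for replicates 1 to 3. The mean was -0.079 ± 0.35 (SD, n = 4, limma adjusted p = 0.727), and the 95% interval of -0.38 to 0.22 leaves out a change as large as the threshold of 0.75.

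The summed signal of the 7 muscle genes was highest in the toxin-treated replicate with the most receptor signal at 12 and at 18 h, but not at 6 h. At 12 h it was 15958 and 15972 units in toxin-treated replicates 1 and 2, and 21155 and 19047 units in replicates 3 and 4, where the receptor was high. Likewise at 18 h it was 17005, 15714, 18850 and 22496 units in toxin-treated replicates 1 to 4, highest in the replicate with the most receptor signal. At 6 h the order was not kept, since the muscle sum was 17923, 20647, 15919 and 19734 units while the receptor was highest in replicate 3. The summed signal of the 2 fat body genes split the same 12 h pools the other way, and hexamerin 2 beta carried that split. Its toxin-treated level at 12 h had an SD of 2.70, against 0.22 for vitellogenin (log2, n = 4). Vitellogenin was not called at 6, 12 or 18 h, with log2 ratios of 0.11, 0.25 and 0.082, beside 0.25, -2.39 and -4.21 for hexamerin 2 beta. At 12 h the sum was 13331, 13234, 989.7 and 1099 units in toxin-treated replicates 1 to 4, against 12690 to 14588 units in untreated midguts. At 18 h it was 1588, 1663, 1775 and 1156 units in toxin-treated midguts, lowest in replicate 4, and at 6 h 9923, 10571, 3608 and 958 units. In untreated midguts the muscle sum and the receptor were both highest in replicate 4 at 18 h. At 12 h the untreated muscle sum was highest in replicate 3 (17499 units) and the receptor in replicate 2 (416 units). At 6 h the untreated receptor was highest in replicate 3 (714 units), where the muscle sum was lowest (16137 units). The part of muscle or fat body tissue in the receptor's values was not tested.

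**Figure D1:**
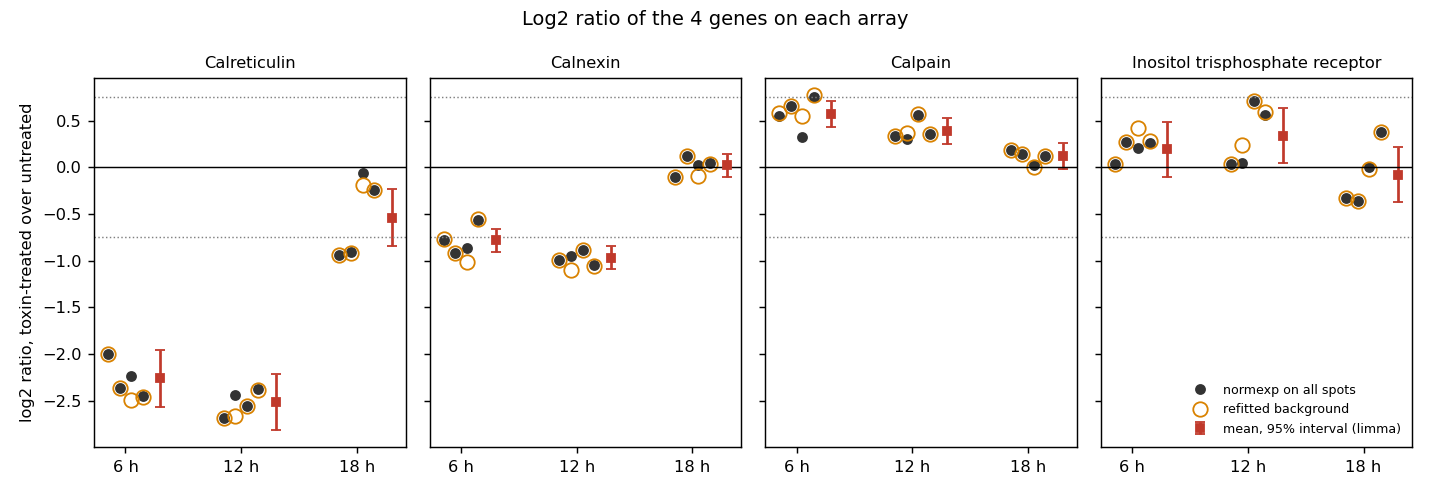
Log2 ratio of toxin-treated over untreated midguts for each gene at 6, 12 and 18 h, with filled points for the 4 arrays after normexp on all spots, open circles for the same arrays after the background refit, red squares with bars for the limma mean and its 95% interval, and dotted lines at the size needed for a call. Calreticulin lay between -2.69 and -2.00 at 6 and 12 h and between -0.94 and -0.062 at 18 h, while calpain stayed above 0 on all 12 arrays.

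The means of the 2 probes of a gene had the same sign at each time point, except for calnexin at 18 h. Calreticulin's probes had mean log2 ratios of -2.37 ± 0.21 and -2.16 ± 0.18, then -2.56 ± 0.14 and -2.47 ± 0.14, and then -0.46 ± 0.50 and -0.62 ± 0.41 at 6, 12 and 18 h (SD, n = 4 arrays). Calnexin's probes were at -0.85 ± 0.19 and -0.72 ± 0.12, then -0.95 ± 0.066 and -0.99 ± 0.076, and then -0.0014 ± 0.072 and 0.044 ± 0.12. Calpain's were at 0.49 ± 0.23 and 0.65 ± 0.16, then 0.29 ± 0.12 and 0.48 ± 0.12, and then 0.16 ± 0.094 and 0.067 ± 0.050. The first calpain probe was thus the lower at 6 and 12 h and the higher at 18 h. Those of the receptor were at 0.18 ± 0.14 and 0.21 ± 0.13, then 0.39 ± 0.46 and 0.29 ± 0.25, and then -0.10 ± 0.37 and -0.055 ± 0.33. The largest gap between paired probes on a single array was 0.46, for the receptor at 12 h. Signs differed between paired probes on 1 array for calreticulin at 18 h, on 2 for calnexin at 18 h and on 1 each for the receptor at 12 and 18 h.

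The next question was whether the ratios differed between time points. Calreticulin's log2 ratio was 1.98 higher at 18 h than at 12 h (95% interval 1.55 to 2.40, limma adjusted p = 0.000326) and 1.72 higher at 18 h than at 6 h (95% interval 1.297 to 2.15, adjusted p = 0.00047). Calnexin's was 0.99 higher at 18 h than at 12 h (0.82 to 1.16, limma adjusted p = 0.00012) and 0.80 higher at 18 h than at 6 h (0.63 to 0.97, adjusted p = 0.000209). These 4 differences were called, in contrasts where 1.75% of all genes were called higher at 18 h than at 12 h and 1.84% higher at 18 h than at 6 h. For calreticulin, 33 genes had a larger positive difference between 18 and 12 h, and for calnexin 246. With the scanner software's ratio calnexin's 18 minus 6 h difference was 0.47 and no longer called, and with scale normalization between arrays all 4 calls were lost. Between 12 and 6 h, where 0.501% of all genes were called higher, 0 of the 4 genes were called. Calreticulin's difference was then -0.25 (95% interval -0.68 to 0.17) and calnexin's -0.19 (-0.36 to -0.016), with limma adjusted p of 0.527 and 0.225.

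Calpain's log2 ratio was 0.45 lower at 18 h than at 6 h (95% interval of the difference -0.65 to -0.26). The limma adjusted p of 0.0116 passed, as for 2.75% of all genes in this direction, and the size did not make a call. The difference did not pass under median centring (-0.30, limma adjusted p = 0.192), with scale normalization or on the first probe alone. The receptor's differences for 12 minus 6 h, 18 minus 12 h and 18 minus 6 h were 0.14, -0.42 and -0.27, with limma adjusted p of 0.738, 0.211 and 0.458. The 95% interval for 18 minus 12 h, -0.83 to 0.0031, holds a change of the size that a call needs, and those for 12 minus 6 h (-0.28 to 0.56) and 18 minus 6 h (-0.69 to 0.15) do not.

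A ratio can move because either channel moves, so the levels of each channel were compared between time points after they were put on a common scale. In toxin-treated midguts, calreticulin averaged 11.58 ± 0.18, 11.87 ± 0.17 and 12.07 ± 0.45 at 6, 12 and 18 h (log2 normalised signal, SD, n = 4). In untreated midguts it averaged 13.84 ± 0.041, 14.39 ± 0.05 and 12.61 ± 0.052 at the same times. Between 18 and 12 h the toxin-treated level thus differed by 0.20 and the untreated level by -1.77, a 3.42-fold lower level in untreated midguts at 18 h. Only 48 of 19751 genes differed more in the untreated channel between these times. Before any normalization the toxin-treated spots of calreticulin had net signals of 2649 to 5131, 3045 to 5014 and 3586 to 9032 units at 6, 12 and 18 h, and the untreated spots 9265 to 13217, 18703 to 27123 and 3392 to 5402 units.

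Calnexin followed the same course at a smaller size. Toxin-treated levels were 12.41 ± 0.17, 12.38 ± 0.11 and 12.60 ± 0.14 at 6, 12 and 18 h, and untreated levels 13.19 ± 0.068, 13.35 ± 0.068 and 12.58 ± 0.056 (log2, SD, n = 4). From the 12 h to the 18 h pools the toxin-treated level differed by 0.22 and the untreated level by -0.77.

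Calpain's convergence also lay mostly in the untreated channel, in the other direction. Toxin-treated levels were 10.13 ± 0.078, 10.17 ± 0.20 and 10.25 ± 0.059, whereas untreated levels were 9.56 ± 0.10, 9.79 ± 0.11 and 10.14 ± 0.046 at 6, 12 and 18 h (log2, SD, n = 4). Its untreated level was 1.49-fold higher at 18 h than at 6 h. On background-subtracted signals without normalization the untreated difference between 18 and 12 h was -0.071, against 0.35 after normalization.

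The receptor's mean levels were lower at 12 h than at 6 h in both channels. After adjustment neither difference passed the exact test given below, and only the untreated difference passed in limma. Toxin-treated pools averaged 9.51 ± 0.21, 8.96 ± 0.37 and 8.97 ± 0.49, and untreated pools 9.32 ± 0.13, 8.62 ± 0.078 and 9.05 ± 0.27 at 6, 12 and 18 h (log2, SD, n = 4). Its differences between 12 and 6 h were -0.55 with toxin and -0.69 without.

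In the exact permutation test of 4 against 4 arrays, where 0.0286 is the smallest p possible, 10 of the 12 untreated comparisons of the 4 genes reached that p, and 0 of the 12 toxin-treated ones did. Adjusted over the 24 comparisons the smallest p is 0.0686, so 0 of 24 passed 0.05. Calreticulin's SDs at 6, 12 and 18 h were 0.041, 0.05 and 0.052 in untreated and 0.18, 0.17 and 0.45 in toxin-treated midguts. Calnexin and the receptor also varied less in the untreated channel at each time, and calpain at 12 and 18 h but not at 6 h. The counts of the 2 channels thus rest on unlike spreads, here and in the limma fit below. Whether the untreated arrays of a time point shared RNA was not tested. Untreated levels did not overlap from 12 to 6 h for calreticulin, calnexin and the receptor, from 18 to 12 h for all 4 genes, and from 18 to 6 h for calreticulin, calnexin and calpain. Over all genes, untreated levels did not overlap for 45.6%, 34.9% and 54.2% of genes in these 3 comparisons, and toxin-treated levels for 26.0%, 7.73% and 33.8%. Thus changes between time points were common on these arrays, and a slide cannot be told apart from its time point.

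With limma fitted to the channel levels of all genes, the untreated levels of all 4 genes passed an adjusted p of 0.05 in the 12 to 6 h and 18 to 12 h comparisons, and those of calreticulin, calnexin and calpain in the 18 to 6 h comparison. The shares of all genes that passed were 50.4%, 36.1% and 56.5%. For toxin-treated levels 0 of the 4 genes passed in any comparison, beside 21.9%, 0.0608% and 34.3% of all genes. The 95% intervals for toxin-treated levels between 18 and 12 h ran from -0.23 to 0.63 for calreticulin and from 0.0079 to 0.44 for calnexin, wide enough to hold modest changes in this channel.

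**Figure D2:**
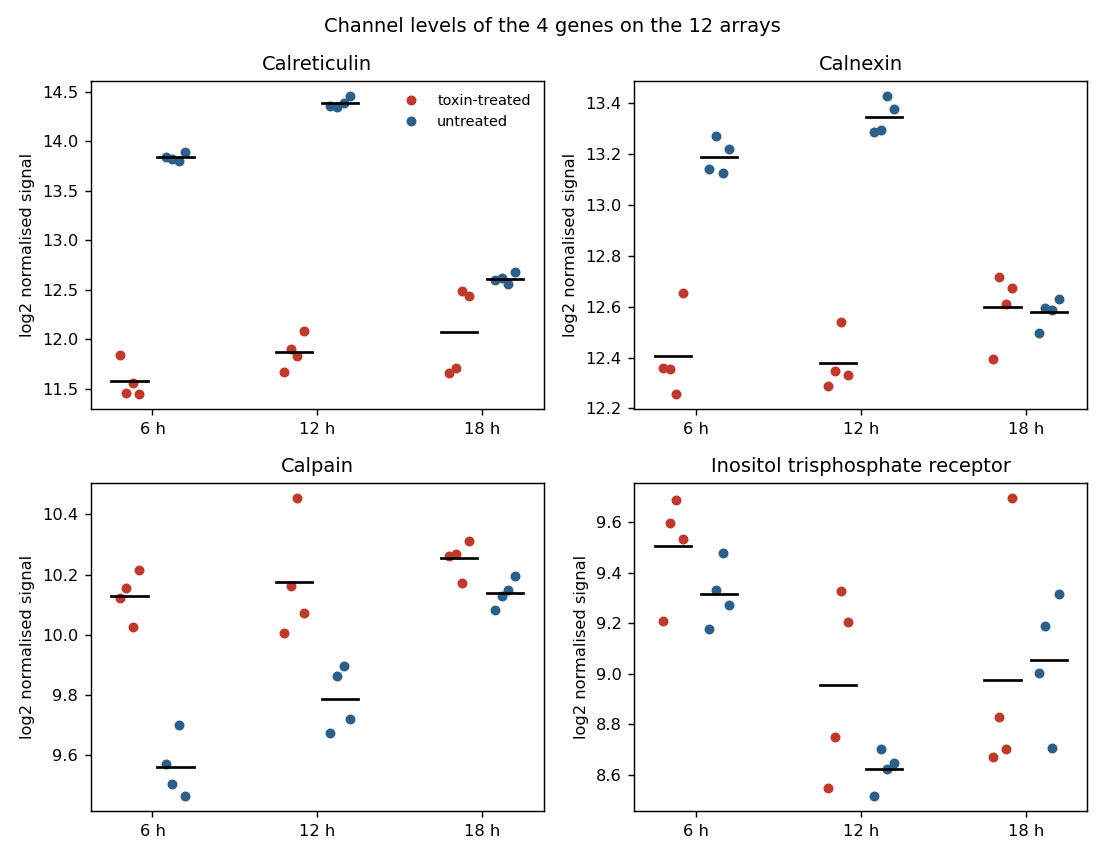
Log2 normalised signal of each gene in toxin-treated (red) and untreated (blue) midguts at 6, 12 and 18 h, with a point for each of the 4 arrays and a black bar at their mean, on an axis of its own for each gene. The mean calreticulin level was 11.58, 11.87 and 12.07 in toxin-treated and 13.84, 14.39 and 12.61 in untreated midguts at the 3 times.

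**Figure D3:**
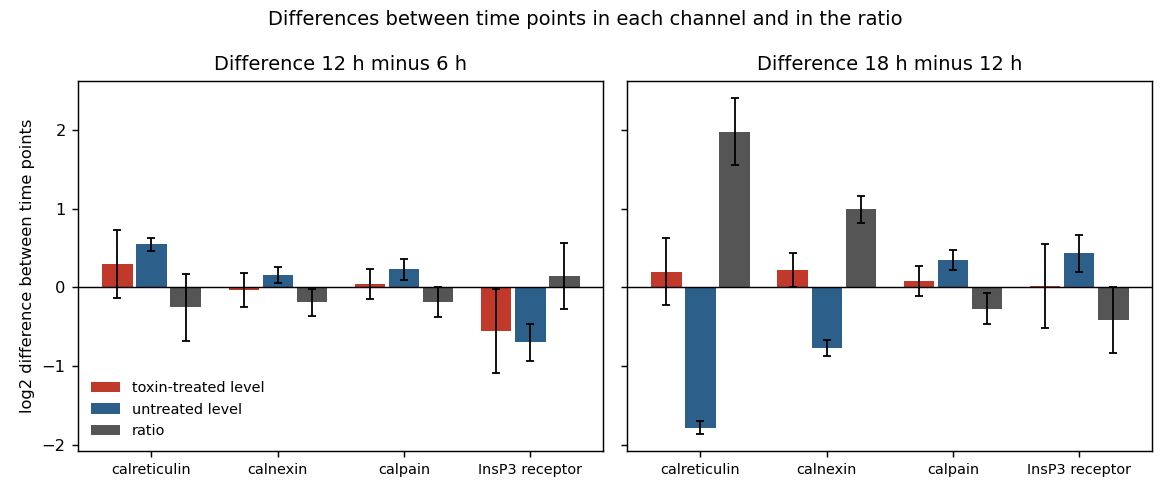
Difference between time points in log2 units for the toxin-treated level, the untreated level and the ratio of each gene, with bars for the limma estimate and lines for its 95% interval. In the 18 to 12 h panel, the calreticulin bars stand at 0.20, -1.77 and 1.98 and the calnexin bars at 0.22, -0.77 and 0.99.

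Ordered by level, calreticulin stood highest in untreated midguts at 12 h, then untreated at 6 h, untreated at 18 h, and toxin-treated at 18, 12 and 6 h. No neighbours overlapped down to toxin-treated at 18 h, and the toxin-treated levels overlapped among themselves. For calnexin, untreated 12 h and untreated 6 h stood apart from each other and from the rest, and the 4 lower groups overlapped with their neighbours. Calpain was lowest in untreated midguts at 12 and 6 h, which overlapped with each other and lay below the other 4 groups. All neighbours overlapped for the receptor, from toxin-treated at 6 h at the top to untreated at 12 h at the bottom.

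Over the 12 arrays the log2 ratios of calreticulin and calnexin had a Pearson r of 0.93, which describes arrays that share their slides and time points. Calreticulin and calpain had an r of -0.77, calnexin and calpain -0.64, and calpain and the receptor 0.46. Among 12694 genes well above background in both channels on all 12 arrays, the most similar to calreticulin were endoplasmin (CPIJ002384, r = 0.97), a Sec61 protein complex gamma subunit (CPIJ005137, r = 0.97) and transmembrane protein 85 (CPIJ005257, r = 0.97). Endoplasmin is a chaperone of the same lumen, and the Sec61 complex is the channel through which new proteins enter it. Those most similar to calnexin were a mitochondrial ribosomal protein S26 (CPIJ019848, r = 0.98), a hypothetical protein (CPIJ009025, r = 0.97) and the delta subunit of the translocon-associated protein (CPIJ002043, r = 0.97), a partner of the Sec61 channel. For calpain they were an AMP dependent CoA ligase (CPIJ000424, r = 0.96), a neuropathy target esterase/swiss cheese (CPIJ003198, r = 0.95) and a conserved hypothetical protein (CPIJ015579, r = 0.95). Of the 3 genes nearest to the receptor, the tables used here name transmembrane protein 63A (CPIJ011090, r = 0.94).

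The 4 genes were set beside 47 others of related function, taken from genes that the study listed as changed on these same arrays, so that the counts below are not independent evidence of a direction. Of 14 genes that build, trim or read the sugar chains bound by calnexin and calreticulin, 4, 11 and 1 were called lower at 6, 12 and 18 h, and 0 higher, where the shares of all genes called lower were 2.28%, 4.30% and 1.24%. Their median log2 ratio was -0.62, -0.86 and -0.20, beside a median of 0.0034 to 0.0062 for all genes. UDP-glucose:glycoprotein glucosyltransferase (CPIJ007484), which adds back the glucose that returns an unfolded protein to the lectin chaperones, was at -0.63, -0.92 and -0.027 and was called at 12 h (limma adjusted p = 0.000104). Glucosidase 2 subunit beta (CPIJ009731), part of the enzyme that trims that glucose, was at -0.31, -0.55 and -0.37 and was not called. The largest fall of this list at 12 h was that of a truncated ER mannose-binding lectin (CPIJ017989), at -1.57 (adjusted p = 8.7e-06).

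Of 7 genes of protein folding in the lumen, 4, 5 and 1 were called lower at 6, 12 and 18 h and 0 higher, beside the same shares of all genes, with medians of -1.23, -1.36 and -0.099. A disulfide isomerase (CPIJ005219), never called, was saturated on 4, 3 and 2 toxin-treated arrays at these times and on 4 untreated arrays at 12 h. Disulfide-isomerase A5 (CPIJ019469), never called either, was well above background on only 2 and 3 of the 4 toxin-treated arrays at 6 and 12 h. The 78 kDa glucose-regulated protein (CPIJ003550), the main Hsp70 chaperone of the compartment, had log2 ratios of -1.95, -1.70 and -0.20, and endoplasmin, its Hsp90, of -1.48, -1.59 and -0.099. Both were called at 6 and 12 h, and neither at 18 h. Untreated levels at 18 h lay below those at 12 h without overlap for 12 of the 14 sugar chain genes and 6 of the 7 folding genes, and 0 of either list lay above, where 18.0% of all genes were lower and 16.8% higher in that way. The median differences of these lists were 0.021 and 0.0041 in toxin-treated midguts, and -0.74 and -0.90 in untreated midguts.

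The other calcium genes, 18 in number, were called in both directions. At 6 h 1 was called higher, at 12 h 2 were higher and 2 lower, and in the 18 h pools 1 was higher and 2 lower, with list medians of 0.32, 0.31 and -0.076. Of all genes 1.84%, 3.15% and 1.79% were called higher at these times and 2.28%, 4.30% and 1.24% lower. One of the 18, a potassium-dependent sodium-calcium exchanger (CPIJ011949), was never called. Both its probes were well above background on only 1 toxin-treated array, at 6 h, and on 0 untreated arrays. A further calpain (CPIJ010278) was at 0.67, 0.28 and 0.17 and was not called, though its adjusted p passed at 6 h (limma, 0.00184). The ryanodine receptor (CPIJ001302), another calcium release channel of the endoplasmic reticulum, was at 0.27, 0.39 and -0.020, passing without a call at 12 h (limma adjusted p = 0.00643). Annexin x (CPIJ008003), of a family that binds membranes in a calcium-dependent way, had the largest called increase at 12 h, 0.96 (adjusted p = 0.00235), and regucalcin (CPIJ007125), a calcium-binding protein, the largest decrease, -1.45 (adjusted p = 0.00492). Another regucalcin of the list (CPIJ007230) was called lower at 18 h but not at 12 h. Another annexin x (CPIJ008005) was not called at any time point.

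Of 8 genes of inositol phosphate and phosphatidylinositol metabolism, 1 was called higher and 1 lower at 6 h, 1 and 2 in those directions at 12 h, and 0 at 18 h. The shares over all genes are those given for the calcium genes. The list medians were 0.063, 0.19 and -0.05. Multiple inositol polyphosphate phosphatase 1 (CPIJ011248), which removes phosphates from inositol phosphates, was at 1.52, 0.84 and 0.31 and was called higher at 6 and 12 h (limma adjusted p = 1.73e-05 and 0.00066). Inositol monophosphatase (CPIJ016640), which frees inositol for reuse, was at -0.64, -1.14 and -0.51 and was called lower at 12 h (adjusted p = 3.41e-05).

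**Figure D4:**
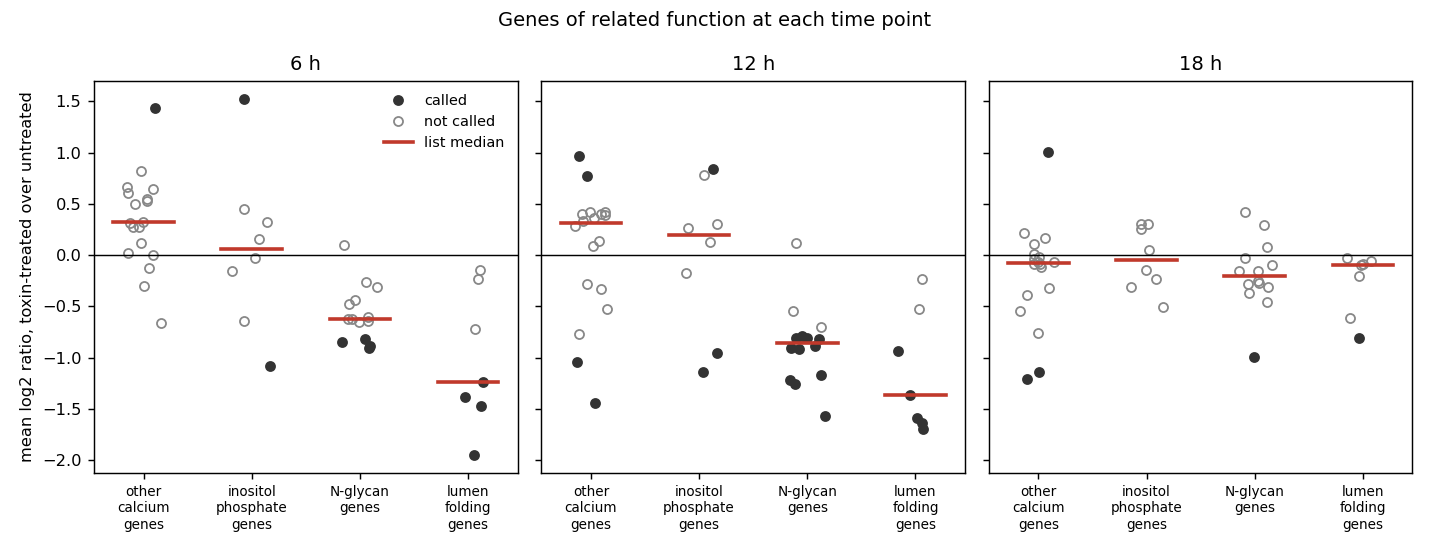
Mean log2 ratio of toxin-treated over untreated midguts at 6, 12 and 18 h for each gene of 4 lists (18 other calcium genes, 8 inositol phosphate genes, 14 N-glycan genes, 7 lumen folding genes), filled where called and open where not, with a red line at the list median. At 12 h the medians stand at 0.31, 0.19, -0.86 and -1.36.

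**Figure D5:**
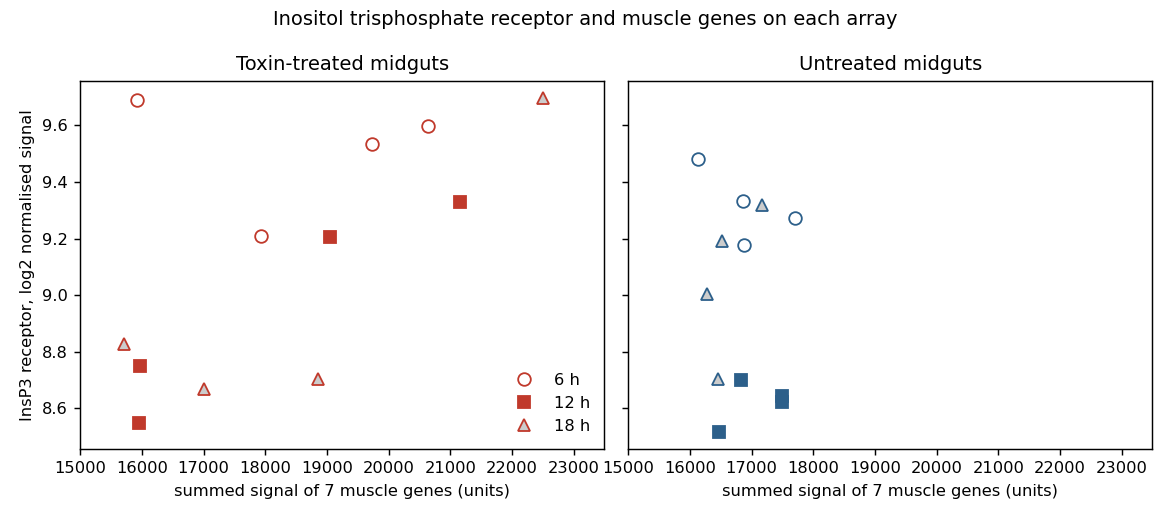
Log2 normalised signal of the inositol trisphosphate receptor against the summed signal of 7 muscle genes in units, toxin-treated midguts on the left and untreated midguts on the right, with a symbol for each array by time point. At 12 h the toxin-treated replicates with muscle sums of 21155 and 19047 units had receptor signals of 643 and 590 units, and those with 15958 and 15972 units had 374 and 431 units.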

How the data were processed

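Midgut RNA of toxin-treated and untreated larvae was hybridised in pairs to 12 custom Agilent arrays. The authors deposited intensity values without normalization, which per the file headers are medians of spot and local background pixels from Feature Extraction 11.5.1.1. The deposited log10 values are that software's ratios of Cy5 over Cy3. The log2 values that the authors deposited were matched by normexp with an offset of 16 and loess, to within 4.98e-08. Spot marks for background, saturation and outlying pixels were deposited too.

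Here the background was corrected by normexp (offset 50) and log2 ratios were normalized by loess without the 1417 control spots. Spots of a gene were averaged. The 12 arrays entered a single linear model with 3 time means (lmFit and eBayes of limma 3.58.1, R 4.3.3), and p-values were adjusted by Benjamini-Hochberg over all 19751 genes. Channel levels were put on a common scale with Aquantile and compared by two-sided exact permutation over 70 assignments. Normalised signals are 2 raised to these levels. Figures used matplotlib 3.10.9.

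Genes were named from the tables of the study. The 4 genes, the lists and the rules for naming others were chosen with earlier results of these data known. Up to 4 genes per list were given values, namely the largest called change in each direction at 12 h and those closest in role to the 4 genes. The signal-based precision is limited by the 4 arrays per time point. Code was tested on simulated data. Alternatives were other background corrections and normalizations, the deposited and scanner ratios, a filter on dim probes, single probes, separate fits, a replicate block, omission of the 3 narrow arrays and omission of each array. Replicate numbers did not pair the arrays. Sequences of the probes were not analysed here.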

Additional observations from a re-analysis of the deposited data

Results flagged for a closer look

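A difference between time points was called in 4 cases. Calpain's 18 minus 6 h difference of -0.45 passed the test too (limma adjusted p = 0.0116) but was short of the size of a call. The log2 ratio of toxin-treated over untreated midguts was higher at 18 h than at 12 h by 1.98 for calreticulin and 0.99 for calnexin, and higher at 18 h than at 6 h by 1.72 and 0.80. Scale normalization between arrays ended all 4 calls and the scanner ratio that of calnexin between 18 and 6 h. Between 18 and 12 h the toxin-treated levels of these genes differed by 0.20 and 0.22 and the untreated levels by -1.77 and -0.77.

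One array stood apart from its group in 36 groups of 4 arrays checked, where chance alone marks about 5% of groups. It was the toxin-treated level of the inositol trisphosphate receptor in replicate 4 at 18 h, at 9.70 on the log2 scale, with the other 3 replicates between 8.67 and 8.83. On the same array the muscle genes had their highest toxin-treated sum, 22496 units.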

How the results depend on the processing

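Of the 8 calls made for calreticulin and calnexin, all 8 were kept with the background refit, plain subtraction, the deposited log ratios, the filter on dim probes, the first probe alone and omission of the 3 narrow arrays. The 4 of them at single time points were kept in separate fits. All were lost under scale normalization between arrays, which by construction widens the narrow arrays. Calreticulin was then at -3.11, -3.62, 3.11 (18 minus 12 h) and 2.60 (18 minus 6 h), calnexin at -1.15, -1.40, 1.47 and 1.23, and the receptor's 12 minus 6 h difference turned to -0.050. Calnexin at 6 h was no longer called with median centring (-0.50), the scanner ratio (-0.58) or the second probe (-0.72), and without single arrays it ranged from -0.86 to -0.74. The scanner ratio also ended its 18 minus 6 h call (0.47). Median centring called calpain at 6 h (0.82). Calnexin at 18 h changed sign with the refit (-0.011), plain subtraction (-0.041), the scanner ratio (-0.11) and the first probe (-0.0014), and without single arrays it ran from -0.013 to 0.063. The receptor at 18 h was 0.19 with median centring and -0.23 to 0.015 without single arrays. The causes were not tested.

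With the replicate block no call changed, though the receptor's adjusted p at 12 h passed (0.0278). Calreticulin's adjusted p at 12 h was 2.50e-05, and the counts of called genes were 804, 1462 and 595 at 6, 12 and 18 h. Same-numbered arrays correlated at -0.24 to 0.42, over 0.1 in 4 of 12 pairs, and 4 of 12 arrays matched their own number best.

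The alternatives for channel levels were chosen after the data were seen. Without Aquantile, toxin-treated differences turned to -0.026 (calreticulin, 18 minus 12 h), 0.097 (calnexin, 12 minus 6 h), -0.057 and -0.052 (calpain, 12 minus 6 and 18 minus 6 h). Without any normalization calpain's toxin-treated 12 minus 6 h difference was -0.27 and its untreated 18 minus 12 h difference -0.071. Without single arrays the toxin-treated 12 minus 6 h difference ran from -0.083 to 0.054 for calnexin and from -0.049 to 0.10 for calpain, and the receptor's 18 minus 12 h difference from -0.22 to 0.14. In limma, unlike in the exact test, adjusted p passed for untreated differences, in the order 12 minus 6, 18 minus 12 and 18 minus 6 h, of 0.55, -1.77 and -1.23 (calreticulin), 0.16, -0.77 and -0.61 (calnexin) and 0.23, 0.35 and 0.58 (calpain), and for the receptor's first 2, -0.69 and 0.43.

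Over all genes, 814, 1471 and 598 were called at 6, 12 and 18 h, and 179, 462 and 556 for the 12 minus 6, 18 minus 12 and 18 minus 6 h differences. In that order, plain subtraction called 1323, 2520, 1157, 599, 1057 and 1136, scale normalization 62, 132, 87, 3, 7 and 53, the scanner ratio 1641, 3290, 1859, 636, 1154 and 1182, and no fold threshold 3583, 6558, 3108, 534, 1694 and 1456. The refit called 376, 732 and 880 differences, median centring 1485 genes at 18 h and 0, 239 and 359 differences, omission of the narrow arrays 274 at 12 minus 6 h, and a separate fit 393 genes at 18 h. Without single arrays the differences numbered 92 to 332, 309 to 697 and 378 to 645.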
